A study of Mus musculus with 10 samples.

Results

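The genes of sterol synthesis, transfer, efflux and regulation were taken as a list of 31 symbols, and each was matched by its Ensembl mouse gene ID to a row of the gene tables. All 31 of the 31 were found among 55487 gene rows, and all 31 passed the filter on low counts that left 17321 genes for testing. The list was chosen by pathway membership, by an earlier reading of these same libraries in which the KI against WT difference was known. The genotype values of these genes are therefore given as a description, and their counts support nothing beyond it.

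Skin from 10 mice was profiled by stranded mRNA sequencing, with 1 library per mouse. The labels give 5 mice as WT and 5 as Hamp1-KI ker, here called KI, where Hamp encodes hepcidin, the hormone that lowers cellular iron export through ferroportin. The labels do not spell out "ker", nor give the strain, age or sex, and no further allele or agent is named for either genotype. Each title starts with EAS37 or EAS42, and what these prefixes stand for is not explained. EAS37 covers 3 WT mice (WT 1, 2 and 3) and 2 KI mice (KI 1 and 2), and EAS42 covers the other 2 WT and 3 KI mice.

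Cells build cholesterol from acetyl-CoA through the mevalonate pathway, which first makes isoprenoid units, then squalene, and then closes and trims the sterol ring. SREBP2, the product of Srebf2, is the transcription factor best known for driving these enzymes: SCAP escorts it out of the endoplasmic reticulum when sterols are low, and the INSIG proteins hold it back when sterols are plentiful. The liver X receptors respond to oxysterols and raise the efflux pumps ABCA1 and ABCG1. In skin, sterols made by keratinocytes are part of the permeability barrier, and sebaceous glands release sterol-rich lipid.

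Hamp was measured at 1.90, 3.33, 2.72, 1.86 and 2.48 CPM (read counts scaled to library size by edgeR's TMM method) in WT 1 to 5, and 90.0, 169, 104, 95.3 and 85.6 CPM in KI 1 to 5. Every KI library lay above every WT library, as the labels have it. Libraries held expected counts summing to 18.96 to 26.43 M, with 3.58 to 5.31% of them from mitochondrial genes. Keratinocyte markers were abundant in both genotypes, with a summed level of 19100 to 21400 CPM over the basal and suprabasal list in WT and 18200 to 29600 CPM in KI. Across all 17321 genes, edgeR's quasi-likelihood test with Benjamini-Hochberg adjustment called 30.9% at an adjusted p under 0.05, with 15.6% higher in KI and 15.3% lower, and the median log2 fold change was -0.01.

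Promoter sequence was set out first because SREBP2 is known to act with the CCAAT-binding factor NF-Y and with Sp1, which binds GC boxes. The lines give up to 250 bases before the transcription start. They cover 5 enzyme genes that were higher in KI and Abca1, an efflux gene that was not. They come from the RefSeq promoter table for GRCm38.p6 and run 5′ to 3′ on the gene's strand. Each ends before the first annotated exon, directly or, in Hmgcs1 and Nsdhl, some bases short of it. Capitals mark CCAAT on either strand (written ATTGG on the other strand) and, in Hmgcs1, TCACNCCAC, a form of the sterol regulatory element. The windows are chr13:119690101-119690350 (+) for Hmgcs1, chr10:76531355-76531587 (+) for Lss, chrX:72918271-72918520 (+) for Nsdhl, chr1:169969242-169969455 (-) for Hsd17b7, chrX:8193513-8193762 (-) for Ebp and chr4:53159896-53160145 (-) for Abca1.
Hmgcs1: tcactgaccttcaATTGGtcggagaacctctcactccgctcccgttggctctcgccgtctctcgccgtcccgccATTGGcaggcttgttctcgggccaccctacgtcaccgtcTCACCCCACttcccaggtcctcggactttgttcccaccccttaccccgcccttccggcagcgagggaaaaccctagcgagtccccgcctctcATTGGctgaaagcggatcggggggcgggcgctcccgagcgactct
Lss: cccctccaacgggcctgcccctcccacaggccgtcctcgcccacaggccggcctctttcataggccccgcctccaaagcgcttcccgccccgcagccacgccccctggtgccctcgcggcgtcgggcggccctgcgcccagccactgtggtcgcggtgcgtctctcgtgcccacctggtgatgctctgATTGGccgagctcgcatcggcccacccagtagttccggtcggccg
Nsdhl: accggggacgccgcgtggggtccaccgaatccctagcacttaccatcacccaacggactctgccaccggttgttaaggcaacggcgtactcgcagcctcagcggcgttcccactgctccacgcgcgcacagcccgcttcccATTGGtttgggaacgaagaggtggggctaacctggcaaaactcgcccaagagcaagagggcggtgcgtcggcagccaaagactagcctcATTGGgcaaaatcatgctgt
Hsd17b7: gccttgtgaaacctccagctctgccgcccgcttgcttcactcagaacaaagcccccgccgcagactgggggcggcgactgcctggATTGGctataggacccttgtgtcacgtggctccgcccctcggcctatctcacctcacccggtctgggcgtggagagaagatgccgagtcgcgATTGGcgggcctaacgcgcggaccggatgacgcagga
Ebp: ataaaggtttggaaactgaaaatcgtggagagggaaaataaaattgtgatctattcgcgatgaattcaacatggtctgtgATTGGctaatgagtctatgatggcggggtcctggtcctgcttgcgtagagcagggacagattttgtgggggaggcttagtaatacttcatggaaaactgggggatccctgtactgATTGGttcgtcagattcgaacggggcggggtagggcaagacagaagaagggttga
Abca1: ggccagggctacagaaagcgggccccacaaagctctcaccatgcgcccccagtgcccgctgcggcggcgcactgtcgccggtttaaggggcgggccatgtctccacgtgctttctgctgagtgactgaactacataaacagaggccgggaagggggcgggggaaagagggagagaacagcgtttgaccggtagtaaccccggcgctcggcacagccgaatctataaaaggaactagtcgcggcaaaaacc

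The printed stretches hold 3 CCAAT matches in Hmgcs1, 2 each in Nsdhl, Hsd17b7 and Ebp, 1 in Lss and none in Abca1. The printed genes are examples and do not stand for the rest. Matches did not follow the test: Acat2, called higher, had none in its window, while Mvk, not called, had 5 and Ggps1 and Insig2, also not called, had 3 each. In windows ended before the first exon, Idi1, Cyp51, Msmo1 and Dhcr7, called higher, had none. Insig1, Srebf2 and Soat1, not called, had 1 each in such windows. In Hmgcs1 the element TCACNCCAC began 137 bases before the start, between CCAAT matches that began 176 and 45 bases before it. Of the 31 genes, 26 had a promoter in the table; those of Fdps, Sqle, Fdft1, Stard4 and Abcg1 were not in it. CCAAT occurred within 250 bases upstream in 16 of 17 enzyme genes (94.1%), in 5 of 9 of the other sterol genes (55.6%), and in 39.7% of the 12141 tested genes with a promoter. By the test, it occurred in 11 of 12 enzymes called higher and 5 of 5 not called. In these whole windows some matches lie past the first annotated exon's start. The search was repeated with every window ended before that exon, as in the printed lines. CCAAT then occurred in 11 of 17 enzyme genes (64.7%), 5 of 9 others (55.6%) and 34.6% of tested genes. By the test, these cut windows held it in 7 of 12 enzymes called higher (58.3%) and 4 of 5 not called (80%). Over whole windows GGGCGG, the GC box, occurred in 15 of 17 enzyme genes (88.2%), in 6 of the 9 others (66.7%) and in 59.8% of tested genes. Over cut windows these shares were 70.6%, 55.6% and 50.1%. CACGTG, the E-box, occurred over whole windows in 3 of 17 enzyme promoters (17.6%), 3 of 9 others (33.3%) and 9.27% of tested genes. Over cut windows its shares were 11.8%, 22.2% and 7.54%. TCACNCCAC, which lies within the classical element, was found in 1 of the 26 genes (3.85%) and in 1.27% of tested genes. The classical 10-base sterol regulatory element was found in 0 of the 26 genes and in 0.0659% of tested genes. The searched forms of the LXR element, exact direct repeats spaced by 4 bases, were found in none of the 26. Among tested genes they were found in at most 0.00824%. Forms this rare could hardly be met in 26 genes, and looser forms of the element were not searched. These are letter matches on both strands in short windows, and no binding was measured.

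The sterol enzymes were higher in KI skin, while genes of regulation, transfer and efflux mostly did not pass the test. As group means, though, the regulation and transfer genes also had every KI library above every WT library. For the 2 transfer genes the margin was narrow, at a mean log2 CPM of 6.66 in WT 4 and 6.68 in KI 3. Taken singly, 1 of the 5 regulation genes and 0 of the 2 transfer genes had such groups. How often group means separate over all genes was not computed. Of 20 enzymes, 14 were called higher (70.0%) and none lower, beside 15.6% of all genes called higher. Of the other 11 genes, Scap was called higher and Nr1h3 lower. In all, 15 of 31 were called higher (48.4%) and 1 lower (3.23%, beside 15.3% of all genes). Their median log2 fold change was 0.48, that of the enzymes 0.66 and that of the other 11 genes 0.30. In 16 genes every KI library lay above every WT library, which held for 10.7% of all genes, and in 0 genes did every KI library lie below, which held for 9.64% of all genes.

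**Figure D1:**
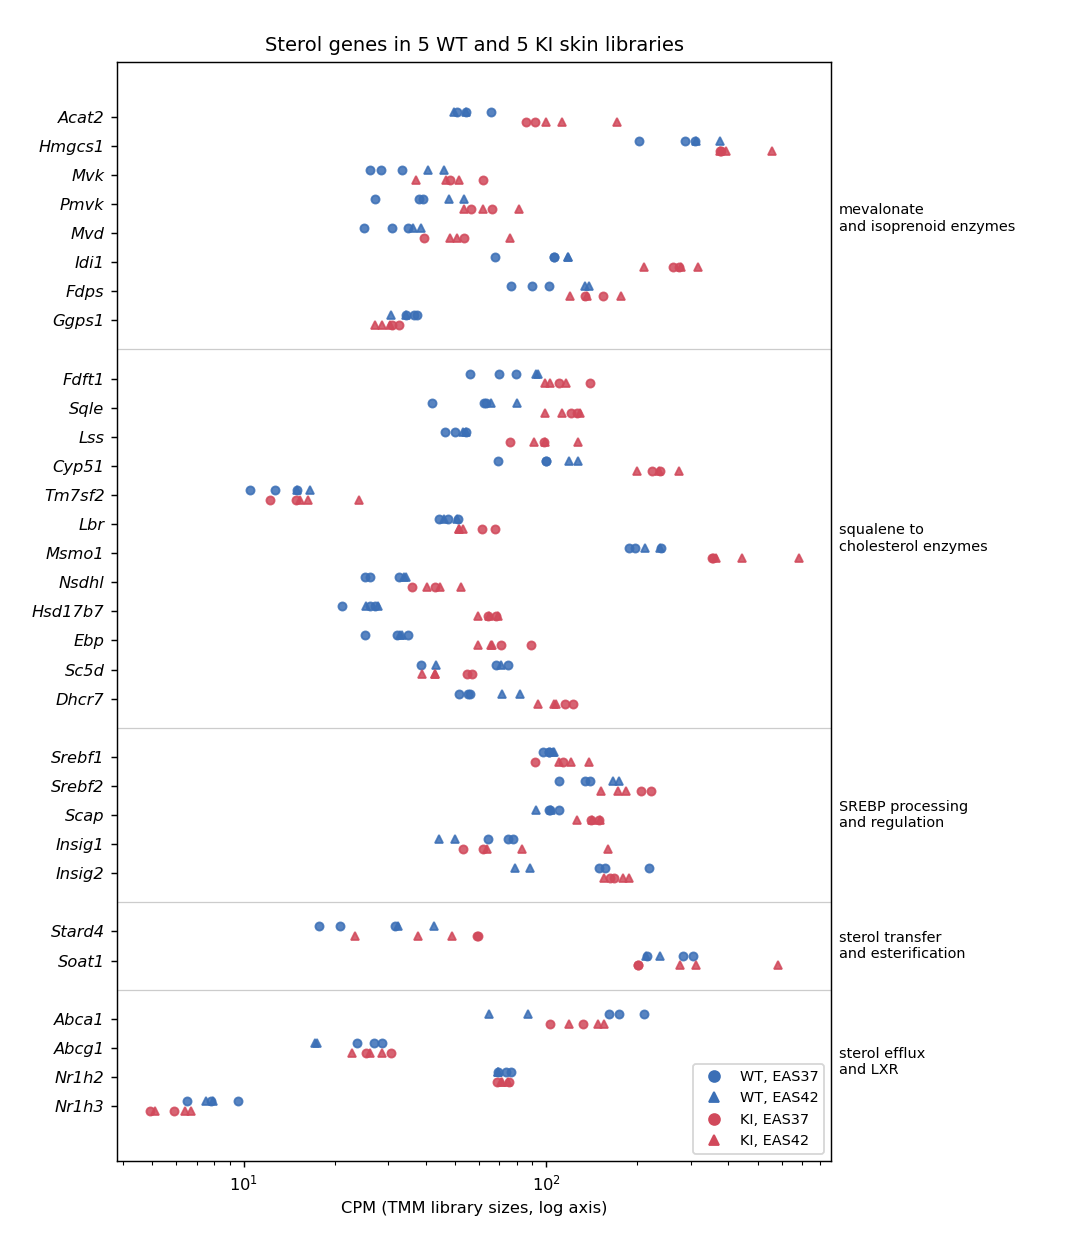
Level of each of the 31 genes in every library, in CPM on a log axis, with WT in blue, KI in red, circles for EAS37 and triangles for EAS42. Groups are apart for 16 genes, among them Idi1, Cyp51, Msmo1, Hsd17b7 and Ebp, and overlap for all 4 efflux and LXR genes.

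Enzymes of the mevalonate and isoprenoid branch were described in pathway order. Acat2, the cytosolic thiolase that joins acetyl-CoA units, measured 65.8, 50.7, 54.5, 49.4 and 54.5 CPM in WT 1 to 5 and 91.5, 85.9, 99.8, 113 and 171 CPM in KI 1 to 5. The groups did not overlap, and KI 5 was the highest; the log2 fold change was 1.03 ± 0.18 (SE, n = 5 and 5, edgeR adjusted p = 0.00297). Mouse Acat2 has a close paralog, Acat3, and RSEM divides shared reads between such copies by estimate.

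Hmgcs1, which forms HMG-CoA, measured 288, 203, 311, 374 and 313 CPM in WT and 374, 377, 376, 393 and 556 CPM in KI. The highest WT library and the lowest KI library were level at this rounding, and KI 5 stood apart. Its log2 fold change was 0.48 ± 0.16 with an edgeR adjusted p of 0.0467, a call lost in 17 of 23 alternative analyses. Leaving out any single library other than WT 4 ended the call, with a log2 fold change of 0.37 to 0.52 and an edgeR adjusted p of 0.0509 to 0.0899.

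Next come the kinases of mevalonate and phosphomevalonate and the decarboxylase that makes isopentenyl diphosphate. Mvk measured 35.0 ± 8.27 CPM in WT (SD, n = 5) and 49.0 ± 8.89 in KI, with overlapping groups and an edgeR adjusted p of 0.0518, on the other side of the threshold. Pmvk rose 1.55-fold, from 27.1 to 53.3 CPM in WT to 53.6 to 81.3 CPM in KI (log2 fold change 0.64 ± 0.17), and Mvd from 33.2 ± 5.29 to 53.5 ± 13.5 CPM (0.69 ± 0.17). For both, every KI library lay above every WT library, Pmvk by a narrow margin of 53.6 against 53.3 CPM.

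Idi1 isomerises isopentenyl to dimethylallyl diphosphate and lies on chr13:8885501-8892451 (+). Its levels were 106, 67.7, 106, 118 and 118 CPM in WT and 274, 262, 210, 279 and 318 CPM in KI. WT 2 was the lowest library, and the lowest KI value was well above the highest WT value. The mean rose 2.60-fold, with a log2 fold change of 1.38 ± 0.16 (edgeR adjusted p = 4.0e-04).

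Fdps and Ggps1 make farnesyl and geranylgeranyl diphosphate, the latter used to prenylate proteins rather than to make sterols. Fdps measured 76.4 to 138 CPM in WT and 120 to 177 CPM in KI, with overlap (edgeR adjusted p = 0.0854). Ggps1 had the opposite sign, at 34.7 ± 2.62 CPM in WT and 30.0 ± 2.20 in KI, and did not pass the test (log2 fold change -0.21 ± 0.08, edgeR adjusted p = 0.0605). Of the 8 enzymes in this branch 5 were called higher, with a median log2 fold change of 0.56, and the mean log2 CPM of the branch was 5.63 to 6.19 in WT libraries and 6.40 to 6.92 in KI libraries.

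From squalene onward, 9 of 12 enzymes were called higher, and the median log2 fold change was 0.85. Mean log2 CPM over these 12 was 5.35 to 5.85 in WT and 6.22 to 6.55 in KI. Fdft1, squalene synthase, measured 69.7, 56.0, 79.4, 94.1 and 92.4 CPM in WT and 140, 110, 99.4, 103 and 116 CPM in KI. Its groups were close but apart, the nearest values both being EAS42 libraries (log2 fold change 0.54 ± 0.15, edgeR adjusted p = 0.0189). Sqle, the squalene epoxidase, measured 62.5, 42, 63.2, 80.3 and 65.9 CPM in WT and 126, 121, 99.3, 113 and 129 CPM in KI (0.91 ± 0.15).

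Lss closes the ring to give lanosterol. It measured 54.2, 46.4, 50, 53.2 and 54.5 CPM in WT and 98.1, 75.7, 90.8, 98.7 and 127 CPM in KI. The WT libraries were tight, at 51.6 ± 3.46 CPM, and the log2 fold change was 0.92 ± 0.12 (edgeR adjusted p = 6.98e-04).

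Cyp51, the lanosterol demethylase, lies on chr5:4081145-4104746 (-). Its levels were 100, 69.3, 100, 119 and 127 CPM in WT and 237, 223, 200, 236 and 274 CPM in KI. All KI libraries were above all WT libraries and the mean rose 2.27-fold (log2 fold change 1.18 ± 0.15, edgeR adjusted p = 6.28e-04). Its exons overlap those of Akap9 on the other strand. The library kit keeps strand, but whether the counting used strand is not known here. Exons of Hmgcs1, Idi1, Ggps1, Fdft1, Lss, Lbr, Srebf1 and Scap also overlap a gene on the other strand.

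The sterol reductases that act after Cyp51, Tm7sf2 and Lbr, did not pass the test. Tm7sf2 measured 14.0 ± 2.39 CPM in WT and 16.6 ± 4.41 in KI with overlap, and it shares exon sequence with Vps51 on the same strand, so its counts are uncertain. Lbr, which is also the lamin B receptor of the inner nuclear membrane, measured 44.1 to 51.0 CPM in WT and 51.5 to 67.9 CPM in KI. Its groups did not overlap, yet its log2 fold change of 0.25 ± 0.09 had an edgeR adjusted p of 0.0565. With the title prefix as a block it was called higher (0.27, edgeR adjusted p = 0.0254), and over all alternatives the adjusted p ran from 0.0195 to 0.598.

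Msmo1, Nsdhl and Hsd17b7 remove the methyl groups at the fourth carbon of the ring, and all 3 were higher in KI. Msmo1, the methyl sterol oxidase, measured 240, 188, 196, 212 and 237 CPM in WT and 356, 352, 364, 443 and 684 CPM in KI. The lowest KI library was above the highest WT library, and KI 5 stood apart at the top (log2 fold change 1.03 ± 0.18, edgeR adjusted p = 0.00316). Nsdhl, the decarboxylating dehydrogenase, went from 30.5 ± 4.43 to 43.3 ± 5.96 CPM (log2 fold change 0.51 ± 0.12). Msmo1 lost its call with the sebaceous marker level as a covariate (0.57, edgeR adjusted p = 0.0591) and within EAS42 fitted alone (0.0522). Nsdhl lost it in the same fits (0.154 and 0.0722) and with the muscle marker level as a covariate (0.0584).

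Hsd17b7, the ketosteroid reductase of this step, lies on chr1:169949535-169969241 (-). It measured 27.2, 21.1, 26.2, 25.4 and 27.8 CPM in WT and 68.0, 64.4, 59.7, 69.1 and 64.5 CPM in KI. Both genotypes were tight and far apart, and the mean rose 2.55-fold. Its log2 fold change of 1.35 ± 0.09 (edgeR adjusted p = 1.15e-05) had the smallest adjusted p of the 31 genes.

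Ebp shifts the ring's double bond and lies on chrX:8185329-8193512 (-). Its levels were 34.9, 25.2, 32.1, 33.0 and 33.5 CPM in WT and 88.9, 71.1, 59.4, 65.5 and 66.2 CPM in KI. No KI library came near the WT range, and the mean rose 2.21-fold (edgeR adjusted p = 2.84e-04).

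Sc5d and Dhcr7 finish the sterol. Sc5d, the desaturase, measured 68.0, 38.7, 74.7, 70.9 and 43.1 CPM in WT and 56.8, 54.7, 39.0, 43.0 and 42.8 CPM in KI. Its WT libraries covered the whole KI range, and it did not pass the test (log2 fold change -0.32 ± 0.20, edgeR adjusted p = 0.231). Dhcr7, the reductase of the last step, measured 55.1, 51.5, 56.1, 81.9 and 71.2 CPM in WT and 123, 115, 93.9, 108 and 106 CPM in KI. The groups were apart, and the WT libraries of EAS42 were above those of EAS37 (log2 fold change 0.79 ± 0.13, edgeR adjusted p = 0.00238).

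**Figure D2:**
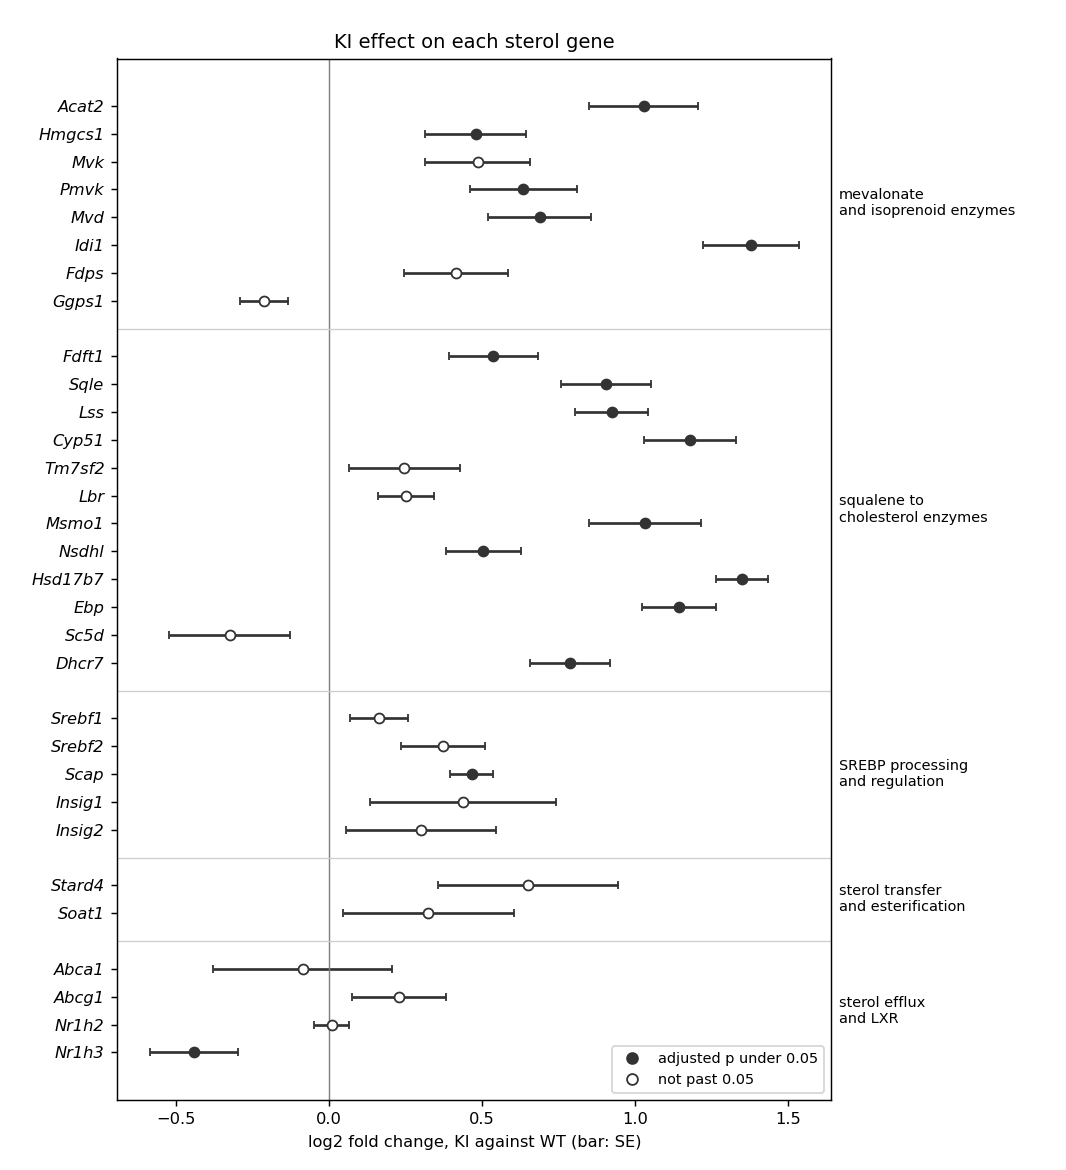
Log2 fold change of each gene in KI against WT, with its SE as a bar and filled points where the adjusted p was under 0.05. Enzyme points run from -0.32 (Sc5d) to 1.38 (Idi1), and those of the efflux and LXR genes from -0.44 (Nr1h3) to 0.23 (Abcg1).

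Of the 5 genes of SREBP processing and regulation, 1 was called. Srebf2 measured 134, 110, 139, 174 and 166 CPM in WT and 222, 206, 173, 184 and 152 CPM in KI. The groups overlapped among the EAS42 libraries, and its log2 fold change of 0.37 ± 0.14 had an edgeR adjusted p of 0.0586. Srebf1, whose product is better known for fatty acid synthesis, measured 102 ± 3.22 CPM in WT and 115 ± 16.9 in KI (edgeR adjusted p = 0.21).

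That gene was Scap, which measured 110, 103, 102, 104 and 92.7 CPM in WT and 141, 149, 126, 150 and 142 CPM in KI. Its groups were apart with little spread in either (log2 fold change 0.47 ± 0.07, edgeR adjusted p = 0.00143). With the muscle marker level as a covariate the call was lost (0.35, edgeR adjusted p = 0.0626), the only loss in 23 alternatives. Within EAS37 the log2 fold change was 0.46, and within EAS42 it was 0.51.

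Insig1, itself a known SREBP target, measured 77.4, 75.0, 64.4, 50.1 and 44.3 CPM in WT and 61.7, 53.0, 63.9, 83.0 and 160 CPM in KI. The groups overlapped, with KI 4 and KI 5 above the WT range and KI 5 far above (log2 fold change 0.44 ± 0.30, edgeR adjusted p = 0.29). Insig2 measured 149, 219, 156, 88.5 and 79.1 CPM in WT and 168, 163, 155, 179 and 188 CPM in KI. Its KI libraries were close to each other, whereas the WT libraries split by prefix (log2 fold change 0.30 ± 0.24, edgeR adjusted p = 0.369). Over the 5 regulators the median log2 fold change was 0.37. Their mean log2 CPM was 6.48 to 6.82 in WT libraries and 6.90 to 7.28 in KI libraries, without overlap.

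Stard4 and Soat1 handle free sterol inside the cell, the first by carrying it between membranes and the second by esterifying it for storage. Stard4 measured 20.9, 17.8, 31.6, 42.7 and 32.5 CPM in WT and 59.4, 59.1, 37.8, 48.8 and 23.3 CPM in KI. KI 5 was low among its group, unlike its place in most enzymes, and the gene did not pass the test (log2 fold change 0.65 ± 0.29, edgeR adjusted p = 0.117). Soat1 measured 305, 216, 283, 238 and 213 CPM in WT and 201, 201, 276, 313 and 583 CPM in KI, and only KI 4 and KI 5 exceeded the WT range (0.33 ± 0.28, edgeR adjusted p = 0.397). The mean log2 CPM of Stard4 and Soat1 together was 5.96 to 6.66 in WT libraries and 6.68 to 6.95 in KI libraries.

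Of the 4 efflux and LXR genes, none was called higher and 1 lower. Abca1, which loads cholesterol onto apolipoprotein A-I, measured 174, 210, 161, 64.7 and 87.3 CPM in WT and 103, 132, 119, 148 and 155 CPM in KI. The KI libraries lay inside the WT range, and the pooled log2 fold change was -0.09 ± 0.29 (edgeR adjusted p = 0.845). Abcg1, which exports sterol to lipoprotein particles, measured 23.7, 28.7, 27.0, 17.2 and 17.5 CPM in WT and 25.3, 30.6, 22.8, 28.7 and 26.2 CPM in KI, with overlap (log2 fold change 0.23 ± 0.15, edgeR adjusted p = 0.276).

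The receptor genes differed from each other. Nr1h2, encoding LXR beta, measured 71.7 ± 3.33 CPM in WT and 72.1 ± 2.79 in KI (log2 fold change 0.01 ± 0.06). Nr1h3, encoding LXR alpha, measured 9.62, 6.51, 7.78, 7.51 and 7.93 CPM in WT and 4.90, 5.90, 5.10, 6.39 and 6.69 CPM in KI. Its groups overlapped through WT 2 and KI 5, and the call of lower in KI (log2 fold change -0.44 ± 0.14, edgeR adjusted p = 0.0385) was lost in 14 of 23 alternative analyses. Leaving out any single library other than WT 2 or KI 5 ended it, with an edgeR adjusted p of 0.0574 to 0.0945. Its exons overlap Gm13783 on the same strand, which makes its counts uncertain. The median log2 fold change of the 4 genes was -0.04, beside 0.56 and 0.85 for the enzyme branches.

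Levels per length, in TPM, which corrects for transcript length, set the genes in order. In WT, Msmo1 was highest at 201 ± 22.7 TPM (SD, n = 5), followed by Fdps at 141 ± 35.4, Hmgcs1 at 134 ± 26.9 and Insig2 at 95.4 ± 44.5, of which the last 3 overlapped across WT libraries. The lowest were Abcg1 at 6.45 ± 2.09, Nr1h3 at 6.65 on average, Hsd17b7 at 8.08 ± 1.03 and Stard4 at 8.43 ± 2.61 TPM. In KI, Msmo1 stood at 384 ± 144 TPM, Hmgcs1 and Fdps at 177 ± 41.6 and 175 ± 29.5 TPM, and Idi1 at 125 ± 21.1 against 50.4 ± 9.90 TPM in WT. Fdps shares exon sequence with Gm43738 on the same strand, so its level is uncertain.

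The title prefix divided the KI effect for some genes. Within EAS37, 18 of 31 genes were called higher (beside 17.4% of all genes) with a median log2 fold change of 0.62, and Abca1 was called lower. With EAS42, 13 were called higher (7.94% of all genes) with a median of 0.42. Among the enzymes 15 were called higher with EAS37 and 9 with EAS42, with medians of 0.78 and 0.42. Hsd17b7 was at 1.41 with EAS37 and 1.28 with EAS42, and Idi1 at 1.52 and 1.19.

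A test of the difference between prefixes called 2 of the 31 genes, Dhcr7 and Abca1, beside 0.866% of all genes. Dhcr7 had a log2 fold change of 1.13 with EAS37 and 0.43 with EAS42, a difference of -0.71 ± 0.14 (edgeR adjusted p = 0.0488). Abca1 was lower in KI with EAS37, at -0.63, and higher with EAS42, at 0.89, a difference of 1.52 ± 0.26 (edgeR adjusted p = 0.0396). Leaving out single libraries gave 0 to 3 such genes; the count was 0 without WT 1, WT 4, WT 5, KI 1, KI 2, KI 3 or KI 5 and 1 without WT 3 or KI 4.

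Several genes past the test in one prefix alone had a difference that did not pass. Insig2 was at -0.08 with EAS37 and 1.05 with EAS42 (difference, edgeR adjusted p = 0.0537). Srebf2 was at 0.74 and 0.00 (0.0703), and Mvk at 0.90 and 0.06 (0.103). Stard4 was at 1.33 and -0.03 (0.178). Soat1 passed in neither prefix, at -0.41 and 0.79 (0.202).

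Hair shaft and inner root sheath markers also split by prefix: their mean log2 CPM was 2.86, 8.11, 4.60, -1.19 and 0.54 in WT 1 to 5 and 3.83, 6.05, -1.65, -1.51 and 0.08 in KI 1 to 5. Every EAS37 library was above every EAS42 library, and 0 of the 9 markers tested were called between genotypes. Their summed level ran from 4.06 to 3210 CPM in WT and from 4.27 to 790 CPM in KI. No hair marker had a called difference of the KI effect between prefixes. Of 10 proliferating cell markers 4 had one, and their median log2 fold changes were 2.11 with EAS37 and 0.64 with EAS42. The 12 sebaceous markers had 0, with medians of 0.15 and 1.21. The part of hair, proliferating or sebaceous cells in the prefix differences was not tested. WT 2, the library with the highest hair level, was also the lowest of its genotype for 17 of 20 enzymes.

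**Figure D3:**
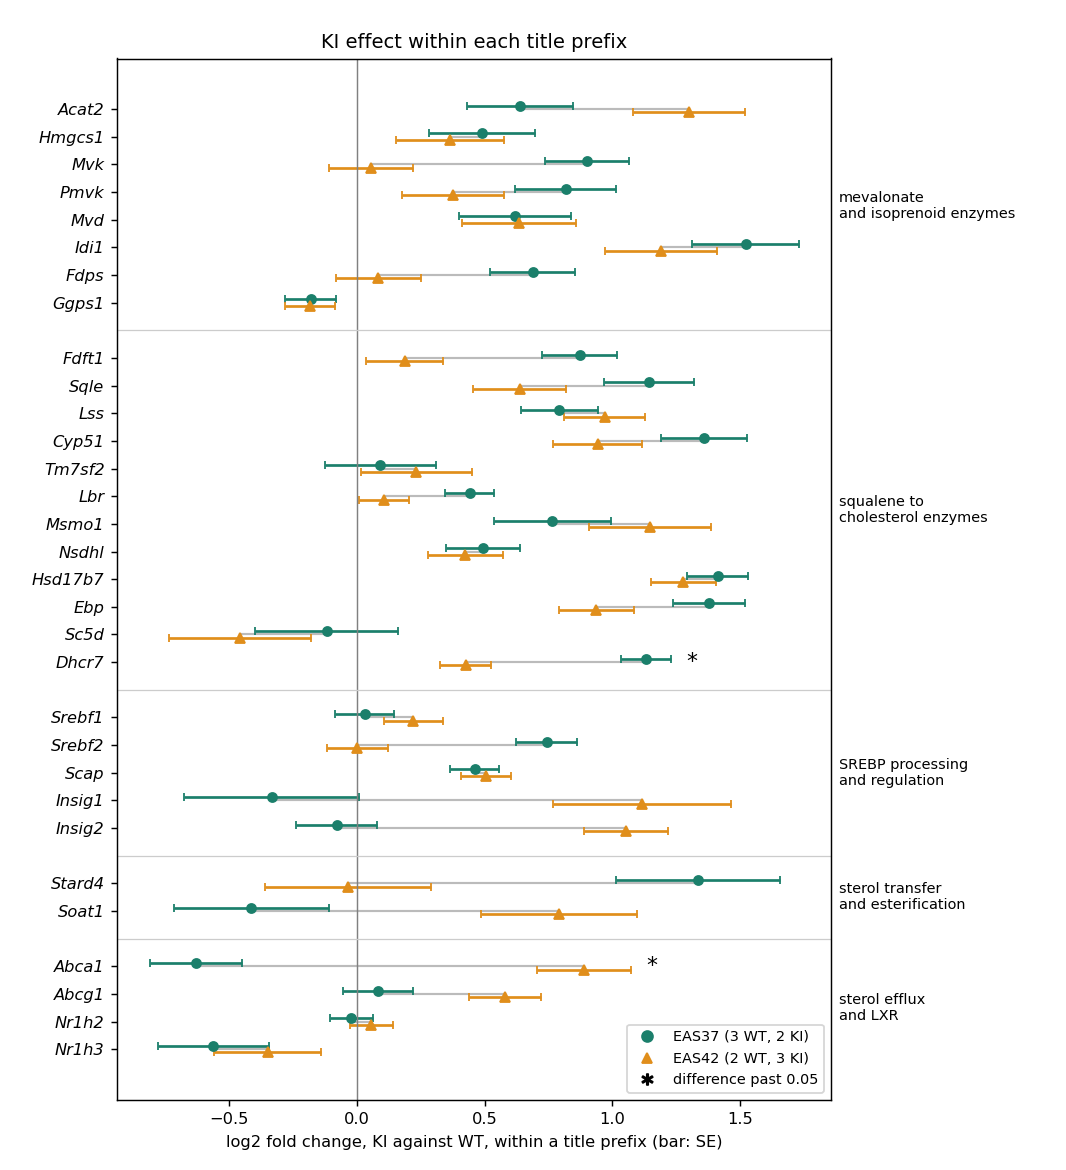
Log2 fold change of KI against WT within EAS37 (circles) and within EAS42 (triangles) for each gene, with SE bars and an asterisk where the difference passed an adjusted p of 0.05. Asterisks stand at Dhcr7 and Abca1, and the points of Hsd17b7, Scap and Mvd lie close together.

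Other cell types moved with genotype, and bulk RNA cannot tell fewer cells of a type from less RNA per cell. Of 12 sebaceous gland markers 6 were called higher and none lower, with a summed level of 1240 to 2270 CPM in WT and 5050 to 6950 CPM in KI. That gap rested on Krt79, a keratin of the sebaceous duct, which went from a mean of 560 to 3971 CPM; without it, a check made after seeing the data, the sums overlapped, at 892 to 1560 and 1290 to 3080 CPM. Their mean log2 CPM was 6.67, 6.17, 6.25, 5.76 and 5.81 in WT and 6.67, 6.40, 6.71, 7.04 and 7.59 in KI, so the groups overlapped on this scale and KI 5 was highest, as it was of its genotype for 12 of 20 enzymes. All 10 proliferating cell markers were called higher, with summed levels of 125 to 229 CPM in WT and 320 to 610 CPM in KI. Of 12 skeletal muscle markers 1 was called lower, with summed levels of 28900 to 50900 CPM in WT and 3010 to 31500 CPM in KI. Of 10 adipocyte markers 7 were called lower, with a summed level of 1970 to 2700 CPM in WT against 666 to 1220 CPM in KI. Activated keratinocyte markers had 7 of 8 called higher (median log2 fold change 3.90), with summed levels of 1030 to 4540 CPM in WT and 4840 to 17300 CPM in KI. Among 8 basal and suprabasal keratinocyte genes, Krt14 and Krt1 were called higher and Krt15 and Col17a1 lower. Called lower were 6 of 6 Schwann cell markers (806 to 2260 CPM in WT, 240 to 621 in KI), 5 of 6 of endothelium (164 to 245 and 111 to 155 CPM) and 3 of 6 of fibroblasts (7820 to 16700 and 4020 to 8160 CPM). Every marker in these lists had counts in both genotypes.

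With the sebaceous level as a covariate, 10 of 20 enzymes were called higher (21.3% of all genes called in either direction) and their median log2 fold change was 0.58. With the muscle level as a covariate, 8 enzymes were called (2.56% of all genes in either direction) with a median of 0.74. Acat2, Idi1, Lss, Cyp51, Hsd17b7 and Ebp passed under both covariates and in all 23 alternative analyses. The part of the other cell types in the enzyme values was not tested.

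Single libraries decided the call for further genes near the threshold. Pmvk lost its call without WT 3 (edgeR adjusted p = 0.0507) and Fdft1 without KI 1 (0.053). Mvk passed without WT 4 (0.0249) or KI 3 (0.0275), Fdps without WT 5 (0.0461), and Ggps1, as lower, without WT 5 (0.0353). Lbr passed without KI 4 (0.0498) or KI 5 (0.036), Srebf2 without WT 4 (0.0389) or KI 5 (0.0282), and Stard4 without KI 5 (0.0331).

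**Figure D4:**
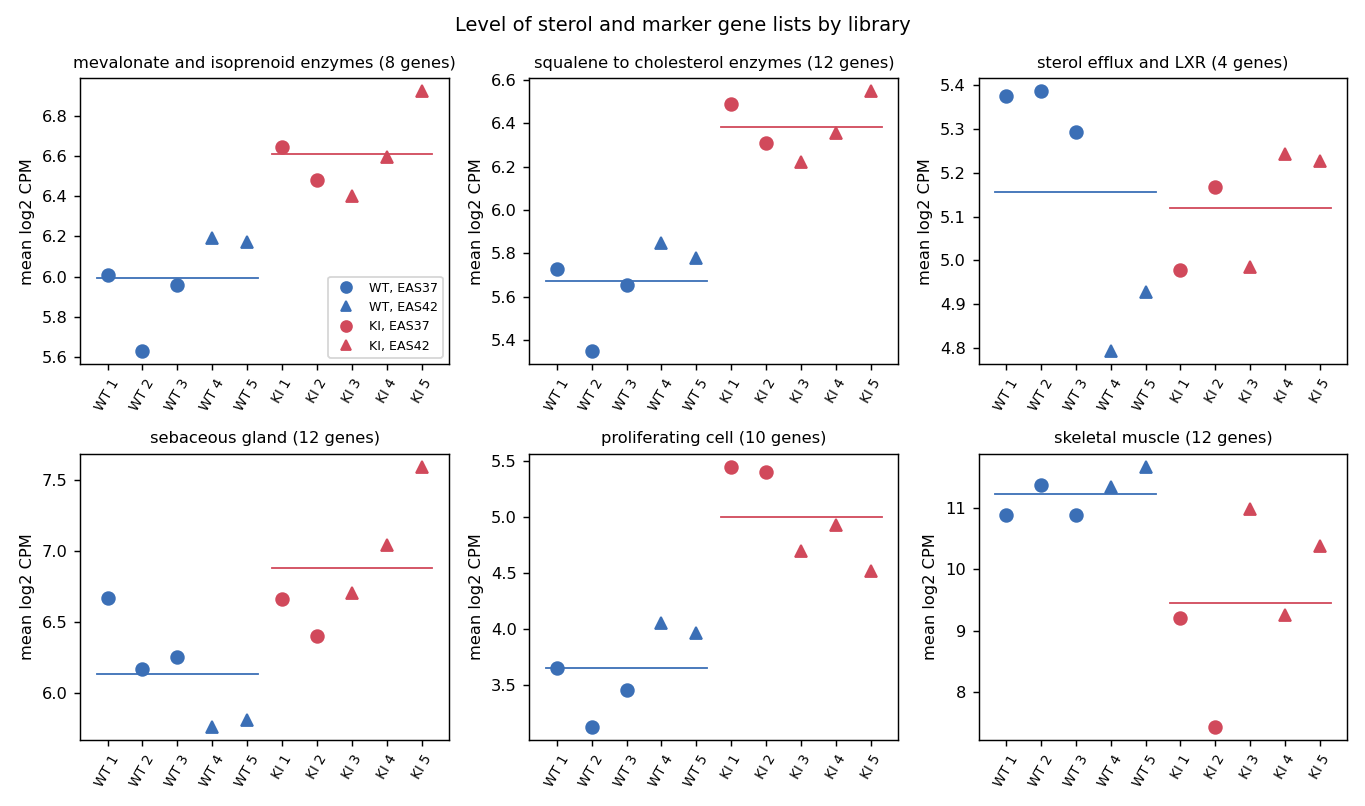
Mean log2 CPM of 3 groups of sterol genes (top) and 3 marker lists (bottom) in each library, with lines at the genotype means. Both enzyme groups and the proliferating cell list have all KI libraries above all WT libraries, while the efflux and LXR group and the sebaceous list overlap. The regulation and transfer groups, not drawn, were also without overlap, the transfer group narrowly (6.66 in WT 4, 6.68 in KI 3).

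Neighbouring pathways were counted the same way, to be read beside 15.6% of genes called higher and 15.3% lower. Among 10 genes of lipoprotein and lysosomal uptake, 2 were called higher and 3 lower, with a median log2 fold change of -0.07. Cd36, a scavenger receptor and fatty acid carrier, went from 171 to 113 CPM, and Lrp8, a lipoprotein receptor, from 2.04 to 4.66 CPM. Of the 9 tested genes on the list of LXR targets and partners, 1 was called higher and none lower, with a median of -0.04. That gene was Smpdl3a, which went from 45.0 to 68.8 CPM. The list is not complete, and Pltp, counted below with the accessory genes, was called lower. With EAS37, 1 of the 9 was called higher and 4 lower, beside 3016 and 3185 of all 17321 genes. With EAS42, 2 were called higher and 0 lower, beside 1375 and 1235 of all genes.

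Fatty acid genes driven by SREBP1 did not move as a block: 3 of 16 were called higher and 2 lower, with a median of 0.26. By prefix their median was -0.29 with EAS37 and 0.39 with EAS42, and 0 of the 16 had a called difference. Mid1ip1, an activator of acetyl-CoA carboxylase, went from 67.8 to 116 CPM, while the desaturase Fads2 went from 12.6 to 7.41 CPM and Fads1 from 43.4 to 31.3 CPM. Genes that cleave SREBP or degrade its regulators had 0 of 10 called higher and 1 lower, Mbtps1, the site-1 protease, which went from 133 to 115 CPM. Sterol-responsive accessory genes had 5 of 12 called higher and 1 lower, among them Tmem97, from 26.2 to 41.6 CPM, and the fatty acid binding gene Fabp5, from 380 to 1138 CPM.

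Of 13 enzymes that use isoprenoids for other products, 5 were called higher (38.5%) and none lower, with a median of 0.08. Their mean log2 CPM was 5.04 to 5.08 in WT libraries and 5.22 to 5.40 in KI libraries, without overlap. Pdss1, which builds the tail of coenzyme Q, went from 12.1 to 48.9 CPM. Its log2 fold change of 2.02 was the largest of the list, and the mean was not taken without it. Of 10 genes of oxysterol and sterol catabolism tested, 2 were called higher and 2 lower. Sult2b1, the cholesterol sulfotransferase of the epidermis, went from 36.5 to 73.6 CPM and Hsd3b7, of bile acid synthesis, from 48.3 to 29.4 CPM. Among 12 sterol transfer proteins 2 were called higher and 3 lower, with a median of -0.12.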

How the data were processed

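RNA from mouse skin was extracted with trizol and made into stranded mRNA libraries, per the labels' protocols. The submitters' processing notes name STAR 2.5.2b, Picard 2.8.1, FastQC, featureCounts, DESeq2 1.14.1 and GRCm38, with no role or order. Each of the 10 deposited tables has RSEM's columns, per the file headers: estimated counts (expected counts, 10.4 to 12.2% of values per library fractional), TPM, FPKM (not used) and effective lengths. Neither the RSEM version nor its annotation is given in the sources used here. TPM values are as the authors deposited them.

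Gene IDs were named from GENCODE M21 (55141 of 55487 IDs; the 346 others held 0.0507% of counts). Expected counts were rounded, filtered with filterByExpr (minimum count 10, minimum total 15; 0.127% of counts removed) and fitted over both genotypes in edgeR 4.0.16 (R 4.3.3) with TMM library sizes and the quasi-likelihood test, Benjamini-Hochberg adjusted over 17321 genes. A joint fit with 4 groups gave the effect within each title prefix and its difference. The SE of a log2 fold change was derived from the test, as its absolute value divided by the square root of the F statistic. CPM use TMM sizes, and log2 CPM a prior count of 2. No 2 libraries were duplicates (lowest chi-square per gene 29.5). Replicate numbers are in accession order and pair nothing. The members and lists were chosen with earlier results of these data known. All 31 members are named; from each other list, up to 3 genes past the test are eligible, and 2 of the listed names were not matched. The fit was tested on simulated data. Alternatives were other normalizations, filters, tests (DESeq2 1.42.0, limma 3.58.1), covariates, effective length offsets, each prefix alone and leaving out libraries. The data hold no measure of sterols or of protein.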

Additional observations from a re-analysis of the deposited data

Results flagged for a closer look

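In 62 groups of 5 libraries (31 genes, both genotypes), 4 held a library whose gap to its nearest neighbour exceeded a share of 0.71 of the group's range; chance alone marks about 1 group in 20. Hmgcs1 was at 556 CPM in KI 5, the highest of its group, with a gap share of 0.893. Msmo1 was at 684 CPM in KI 5 (0.724) and Insig1 at 160 CPM in KI 5 (0.72). Idi1 was at 67.7 CPM in WT 2, the lowest of its group (0.762). The KI effect differed between the title prefixes for Dhcr7, by -0.71 on the log2 scale (EAS42 minus EAS37, edgeR adjusted p = 0.0488), and for Abca1, by 1.52 (edgeR adjusted p = 0.0396).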

How the results depend on the processing

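Each of the 31 genes was refitted under 23 alternatives, 10 of which left out 1 library. No called gene changed sign, and 6 of 16 kept the call in all. Of the 15 genes not called, 10 passed in at least 1. Among these, Insig1 passed with the opposite sign, and Abca1 passed with either sign, as lower with EAS37 alone and as higher with EAS42 alone. With the muscle level as a covariate 8 genes were called higher, all enzymes, none lower, and 443 genes in all. Leaving out both WT 2 and KI 2 was chosen after seeing the data. The count called lower was 2 with upper-quartile scaling, a minimum count of 50, DESeq2 or the sebaceous covariate, and 0 with no filter, effective length offsets, EAS42 alone or without WT 2 and KI 2; leaving out 1 library gave 0 to 1. With EAS42 alone 8 enzymes and 2490 genes were called, and the median was 0.52 for the later enzymes and 0.31 for efflux and LXR genes. That median was -0.27 with EAS37 alone and -0.32 with the sebaceous covariate, and the regulators' median was 0.0519 and -0.0295. The prefix difference was called for 5 members and 445 genes with no filter, and for 0 to 3 members and 1 to 304 genes without 1 library, against 2 and 150. Genes not called in the pooled fit also changed sign. With the sebaceous covariate Tm7sf2 was at -0.0683, Srebf1 at -0.0295, Insig1 at -0.54 (edgeR adjusted p = 0.0395), Insig2 at -0.0605, Soat1 at -0.54 and Nr1h2 at -0.0295. With EAS37 alone Insig1 was at -0.31, Insig2 at -0.0575 and Soat1 at -0.39. With EAS42 alone Srebf2 was at -0.0095, Stard4 at -0.0475 and Abca1 at 0.88 (edgeR adjusted p = 0.0169). Abca1 was at 0.0267 with limma-voom, 0.13 with the prefix as a block and 0.11 without WT 2 and KI 2, and Abcg1 at -0.0035 with the muscle covariate. Leaving out 1 library gave -0.0072 to 0.45 for Soat1, -0.27 to 0.11 for Abca1 and -0.0054 to 0.0336 for Nr1h2. The cause was not tested; the prefixes alone and the fits without a library hold fewer samples, and where 1 library remained in a prefix its spread was taken from the other groups. Leaving out 1 library gave 13 to 17 genes called higher.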
